A study of Mus musculus with 32 samples.

Results

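The adult haemoglobin genes of the mouse followed here are Hba-a1 and Hba-a2, which encode the alpha chain, and Hbb-bs and Hbb-bt, which encode the beta chain. The 4 genes were taken by name from the tables of liver, duodenum, jejunum and ileum, out of 10055 different genes in the 4 tables. Liver, duodenum and jejunum tables held all 4, and the ileum table held Hba-a1, Hba-a2 and Hbb-bs, which gives 15 of the 16 possible pairs of gene and organ. The genes were chosen because their counts were lower in ketohexokinase knockout (Khk KO) mice, so their difference between genotypes is given below as a description. Calls by the authors and by a refit of the same counts are given with it and are no independent test. The study asked how fructose and ketohexokinase (KHK, the enzyme that phosphorylates fructose) act on iron homeostasis. It sequenced polyadenylated RNA from the 4 organs of male WT and Khk KO mice, with 4 libraries for each organ and genotype and 32 libraries in all. The labels give the genotype as WT or Khk KO and name no strain, age, diet or type of Khk allele. They also do not say whether libraries of the same number in different organs came from the same mouse, or whether the blood had been flushed from the organs.

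Haemoglobin carries oxygen as a tetramer of alpha and beta chains, each holding a haem group with an iron atom. Its genes are transcribed in erythroid precursors, and reticulocytes, the youngest red cells in blood, still hold globin messenger RNA after losing their nucleus. Adult liver and small intestine are not sites of regular erythropoiesis in the mouse, and whole-organ RNA includes RNA of the blood left in the vessels. In such bulk samples fewer cells of a type and less RNA per cell cannot be told apart.

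Both pairs of genes are recent copies, and this bears on how far each gene can be measured alone. Hba-a1 (ENSMUSG00000069919) lies on chromosome 11 at 32283511 to 32284465 and Hba-a2 (ENSMUSG00000069917) on chromosome 11 at 32296489 to 32297298, both on the plus strand. Hbb-bs (ENSMUSG00000052305) lies on chromosome 7 at 103826534 to 103828096 and Hbb-bt (ENSMUSG00000073940) on chromosome 7 at 103812524 to 103813996, both on the minus strand. Positions are those of the files, on the mouse build GRCm38, and each span covers the 3 exons and the introns of a protein-coding gene. Coding sequences of Hba-a1 and Hba-a2 from GENCODE M21 transcripts were identical at 428 of 429 bases, with the single substitution C381T, counted from the A of the start codon, Hba-a1 first. Those of Hbb-bs and Hbb-bt were identical at 443 of 444 bases, with C417T, Hbb-bs first. The 61 coding bases around each difference are shown with the differing base in capitals, bases 351 to 411 for the alpha pair and 384 to 444 for the beta pair.
Hba-a1: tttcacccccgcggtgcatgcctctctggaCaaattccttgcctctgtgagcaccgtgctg
Hba-a2: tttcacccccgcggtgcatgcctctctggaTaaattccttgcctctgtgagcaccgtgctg
Hbb-bs: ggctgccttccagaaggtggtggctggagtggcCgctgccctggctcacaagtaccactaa
Hbb-bt: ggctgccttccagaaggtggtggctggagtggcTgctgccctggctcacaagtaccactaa
Of all stretches of 100 bases in the transcripts, 56.5% of those of Hba-a1 and 74.5% of those of Hba-a2 occurred without a mismatch in the other alpha gene. The shares were 62.6% for Hbb-bs and 54.8% for Hbb-bt with the other beta gene, and no other gene in the annotation shared such a stretch with any of the 4. Alpha and beta coding sequences, by comparison, were identical at 57.8% of the aligned bases of Hba-a1 and Hbb-bs. How the authors' counting treated reads that match both copies is not given in the sources used here, so the separate values of 2 copies are uncertain, while the sum over a chain is less so.

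The promoters of an alpha and a beta gene are shown as background, and no link between them and the values below was tested. The sequences are the 100 bases before the RefSeq start site on GRCm38.p6, with the motif CACCC, the motif CCAAT and the motif ATATAA on the coding strand in capitals. They come from chr11:32296392-32296491 on the plus strand for Hba-a2 and from chr7:103827929-103828028 on the minus strand for Hbb-bs.
Hba-a2: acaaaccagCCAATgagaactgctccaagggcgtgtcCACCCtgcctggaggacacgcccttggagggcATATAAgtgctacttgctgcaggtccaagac
Hbb-bs: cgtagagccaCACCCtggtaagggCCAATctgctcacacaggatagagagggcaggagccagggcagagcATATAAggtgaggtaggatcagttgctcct
CACCC boxes and CCAAT boxes are classical elements of globin promoters, and ATATAA is a form of the TATA box. Each of the 4 promoters held all 3 on the coding strand. ATATAA began 28 to 31 bases before the start, at -28 in Hba-a1, -31 in Hba-a2, -30 in Hbb-bs and -29 in Hbb-bt. CACCC lay nearer to the start than CCAAT in the alpha genes, at -60 against -88 in Hba-a1, and farther in the beta genes, at -90 against -76 in Hbb-bs. On either strand, 27.2% of 32851 RefSeq promoters of the same length held CACCC, 18.9% held CCAAT and 3.74% held ATATAA, and 0.201% held all 3. AGATAA, a form of the site bound by GATA factors, was in none of the 4 windows and in 3.59% of all. The windows were identical at 94.2% of aligned bases between the alpha genes, 75.5% between the beta genes and 50.5% between Hba-a1 and Hbb-bs.

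Library totals implied by the FPKM values lay between 9821512 in a liver library and 29475414 in a duodenum library. Only genes below an unadjusted p of 0.05 in the authors' test have a row, so a gene without a row has no level here. Khk, the gene that the KO label names, was lower in each Khk KO library than in each WT library in all 4 organs. In liver no Khk KO library exceeded 47.3 FPKM, while no WT library was under 271 FPKM. WT library 1 of liver stood apart from the other WT libraries. For 56.2% of the 4364 genes that the authors' deposited table called in liver, its value lay nearer the Khk KO mean, against 1.74% to 5.52% for the other 3 WT libraries. Fold changes of the genes with a row also followed gene length, and the haemoglobin transcripts are short. Those genes had been selected for a difference between genotypes, so the size of the trend over all expressed genes is not known. At the lengths of the 4 genes, 667 to 812 bases, the trend over all genes of a table ran from -0.76 to -0.74 (log2, Khk KO minus WT) in liver and from -0.61 to -0.59 in ileum. It ran from -0.44 to -0.41 in duodenum and from -0.47 to -0.45 in jejunum. Its part in the values below was not tested beyond a fit that takes it out, given after them.

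In liver all 4 transcripts were lower in Khk KO, and 1 WT library sat at the Khk KO level. Hbb-bs, the more abundant beta transcript, held 924, 2918, 5646 and 3046 normalised counts in WT libraries 1 to 4 and 849.8, 851, 803 and 738 in Khk KO libraries 1 to 4. Hba-a1, the more abundant alpha transcript, held 739, 2033, 2399 and 2058 normalised counts in WT and 776, 675, 657 and 686 in Khk KO. WT library 1 was the lowest WT library for both, and for Hba-a1 it lay below Khk KO library 1. Hbb-bt followed with 96.3, 275, 354 and 249.6 normalised counts in WT and 76.7, 61.3, 63.1 and 50.9 in Khk KO. For Hba-a2 the values were 86.5, 144, 153 and 161 in WT and 81.5, 66.3, 53.5 and 66.3 in Khk KO. The 4 Khk KO libraries were close to each other, whereas the WT libraries spread over a wide range. Mean normalised counts were 1807 ± 732 in WT and 698 ± 53.1 in Khk KO for Hba-a1, and 136 ± 34.0 and 66.9 ± 11.4 for Hba-a2 (SD, n = 4). Without WT library 1, ratios of WT to Khk KO means were 3.10 for Hba-a1, 2.28 for Hba-a2, 4.78 for Hbb-bs and 4.65 for Hbb-bt. With WT library 1 kept, 3 of the 4 genes had every Khk KO library below every WT library. The same held for 30.7% of the genes in the liver table. All 4 were called lower by the authors' deposited table (adjusted p below 0.05), beside 11.4% of all genes that they had adjusted over. The genes were chosen from this contrast, so these counts say nothing more about them. The edgeR refit used the same counts, so its calls are a description too. It called 4 of the 4 in liver, but 1 of the 4 with the gene length trend taken out. With the replicate number as a block it called 3 of the 4, where Hba-a2 had an adjusted p of 0.061 in the edgeR test. It called none of them without WT library 4 or without Khk KO library 1, 2 or 4, 1 without Khk KO library 3 and 2 without WT library 2. Calls over all genes fitted fell too, from 1365 lower of 5734 to 390 with the trend taken out and 921 with the block. Without WT library 4 it called 2 of 5815 genes lower, and without WT library 2 it called 335 of 5827. Without Khk KO libraries 1 to 4 in turn the calls were 15 of 5765, 1 of 5776, 454 of 5798 and 49 of 5772.

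Duodenal levels were lower than those of liver and the genotypes overlapped for the abundant transcripts. Hba-a1 held 682, 875, 411 and 384 normalised counts in WT libraries 1 to 4 and 501, 286, 159 and 323 in Khk KO libraries 1 to 4. For Hbb-bs the values were 555, 728, 320.2 and 368 in WT and 409, 237, 131 and 230.4 in Khk KO. WT libraries 1 and 2 were high for both, and Khk KO library 1 exceeded WT library 3. Hba-a2 held 102, 64.3, 34.6 and 34.9 normalised counts in WT against 29.6, 22.7, 6.46 and 17.0 in Khk KO. Hbb-bt held 107, 113, 55.2 and 46.7 in WT against 46.5, 31.1, 18.3 and 23.6 in Khk KO. These 2 transcripts did not overlap between genotypes, but for Hbb-bt the gap was that between 46.7 and 46.5 normalised counts, from 67 and 44 reads. Genes with every Khk KO library below every WT library made up 26.0% of the duodenum table. None of the 4 was called by the authors' deposited table, where 0.0961% of all genes adjusted over were called lower. Means were 588 ± 234 normalised counts in WT and 317 ± 141 in Khk KO for Hba-a1, and 493 ± 186 and 252 ± 115 for Hbb-bs (SD, n = 4).

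In jejunum the same libraries were high as in duodenum. Hba-a1 held 549, 590.3, 247 and 193 normalised counts in WT libraries 1 to 4 and 346, 177, 176 and 181 in Khk KO libraries 1 to 4. Hbb-bs held 554, 813, 389 and 292 in WT and 323, 183, 205 and 245 in Khk KO. WT libraries 1 and 2 and Khk KO library 1 led their groups, and Khk KO library 1 lay above WT library 4 for both genes. Hbb-bt ran at 40.2, 92.3, 21.2 and 26.0 normalised counts in WT and 25.7, 16.6, 12.9 and 21.8 in Khk KO. Hba-a2 ran at 50.2, 47.3, 23.4 and 20.8 in WT and 23.99, 11.4, 4.61 and 16.1 in Khk KO, the lowest of these from 5 reads. None of the 4 genes had every Khk KO library below every WT library, beside 23.0% of the genes in the jejunum table. The authors' deposited table called none of them, beside 0.223% of all genes adjusted over that it called lower, and it left Hba-a2 and Hbb-bt unadjusted. Means were 395 ± 204 normalised counts in WT and 220.2 ± 84.0 in Khk KO for Hba-a1, and 512 ± 228 and 239 ± 61.5 for Hbb-bs (SD, n = 4).

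The ileum had the lowest levels of the 4 organs. Hbb-bs held 359, 319.8, 194 and 258 normalised counts in WT libraries 1 to 4 and 181, 132, 81.5 and 153 in Khk KO libraries 1 to 4, without overlap. Hba-a1 held 313, 393, 161 and 169.8 in WT and 166, 112, 82.6 and 120.4 in Khk KO, where Khk KO library 1 lay just above WT library 3. Hba-a2 held 39.8, 24.3, 21.8 and 15.5 in WT and 15.3, 9.01, 13.0 and 7.71 in Khk KO. Its groups were apart only by the gap between 15.5 and 15.3 normalised counts, which came from 15 reads in WT library 4 and 20 reads in Khk KO library 1. Every Khk KO library lay below every WT library for 29.9% of the genes in the ileum table and for 2 of the 3 haemoglobin genes. The authors' deposited table called 2 of the 3 lower by the same threshold, Hba-a1 and Hbb-bs, beside 6.86% of all genes adjusted over. The edgeR refit of the same counts, a description too, called 2 of the 3, but 0 with the gene length trend taken out. It called 1 with the authors' size factors or without Khk KO library 1, and 0 without WT library 2 or Khk KO library 2, 3 or 4. Calls over all genes fitted fell too, from 1019 lower of 4788 to 244 with the trend taken out and 540 with the authors' size factors. Without WT library 2 it called 348 of 4840 genes lower. Without Khk KO libraries 1 to 4 in turn the calls were 147 of 4824, 208 of 4825, 399 of 4827 and 292 of 4823. Means were 283 ± 72.5 normalised counts in WT and 137 ± 42.0 in Khk KO for Hbb-bs, and 259 ± 114 and 120.2 ± 34.7 for Hba-a1 (SD, n = 4).

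**Figure D1:**
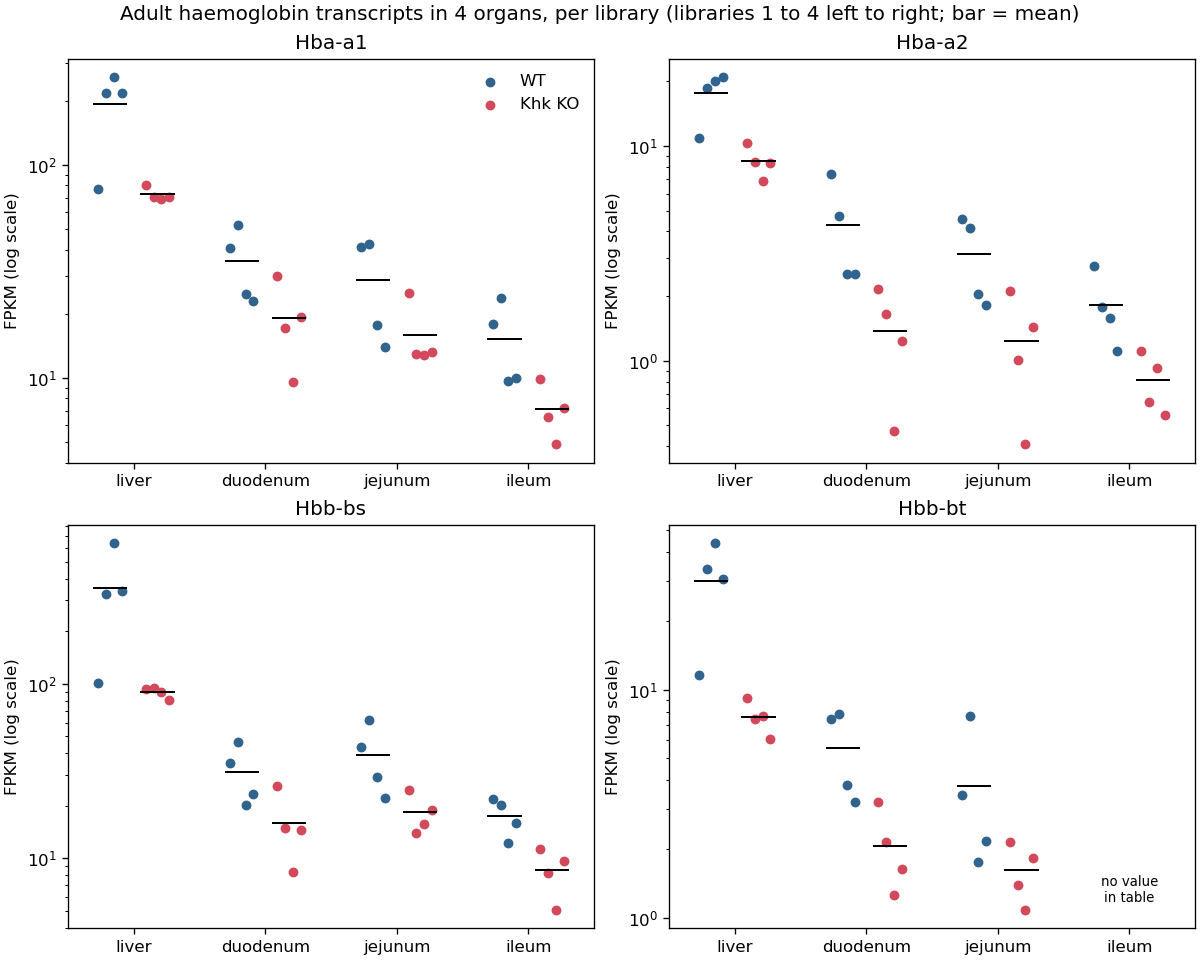
FPKM (log scale) of each haemoglobin gene in every library, by organ and genotype, with libraries 1 to 4 from left to right within a group and a bar at the group mean. Hbb-bt has no row in the ileum table. In liver, WT library 1 lies beside the 4 Khk KO libraries for Hba-a1 at 76.6 FPKM, while the other 3 WT libraries lie at 216 to 258 FPKM.

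Across the 15 pairs of gene and organ, the Khk KO mean was lower in 15, and the ratio of the WT mean to the Khk KO mean ran from 1.79 for Hba-a1 in jejunum to 3.87 for Hbb-bt in liver. In the edgeR refit the log2 fold changes, with Khk KO relative to WT, were in liver -1.34 ± 0.29 for Hba-a1, -0.99 ± 0.24 for Hba-a2, -1.91 ± 0.40 for Hbb-bs and -1.92 ± 0.34 for Hbb-bt (SE). Duodenal values were -0.73 ± 0.38, -1.42 ± 0.47, -0.81 ± 0.38 and -1.25 ± 0.39 in the same order. Those of jejunum were -0.82 ± 0.38, -1.31 ± 0.54, -1.10 ± 0.32 and -1.22 ± 0.53. In ileum they were -1.08 ± 0.32 for Hba-a1, -1.12 ± 0.41 for Hba-a2 and -1.02 ± 0.26 for Hbb-bs. With the length trend taken out of each library, the log2 fold changes stayed below 0 for all 15 pairs and shrank. They became -0.57, -0.24, -1.10 and -1.13 in liver, and -0.48, -0.48 and -0.42 in ileum, in the same gene orders. In duodenum they became -0.42, -1.13, -0.52 and -0.96, and in jejunum -0.37, -0.88, -0.66 and -0.82. Hba-a2 in liver kept 23.7% of its log2 fold change and Hba-a2 in duodenum 79.3%, the extremes of the 15. Such a fit would take out a true difference between genotypes too, if it ran with length.

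**Figure D2:**
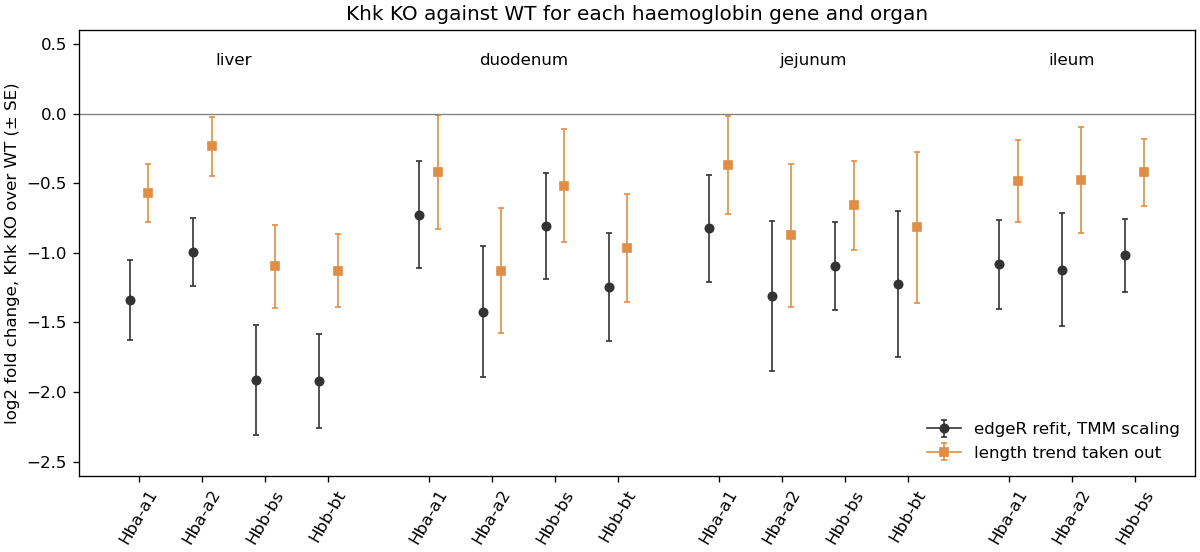
Log2 fold change (Khk KO relative to WT, ± SE) for each haemoglobin gene and organ. Circles show the edgeR refit with TMM scaling. Squares show the fit with the gene length trend taken out, which used the authors' size factors. All 15 pairs lie below 0 in both fits. The fits differ most in liver and ileum, for example -1.34 and -0.57 for Hba-a1 in liver.

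Levels per length place the same 2 genes on top in each organ. Hbb-bs and Hba-a1 were the highest of the haemoglobin transcripts in all 8 groups, with mean FPKM of 353 ± 221 and 192 ± 79.4 in WT liver and 17.6 ± 4.29 and 15.3 ± 6.74 in WT ileum (SD, n = 4). The lower of these 2 had 5.61 to 9.89 times the mean FPKM of the next gene, with no overlap in any group. Between copies of a chain this gap carries the uncertainty about shared reads given with the coding sequences. Between Hbb-bs and Hba-a1 themselves the values overlapped in 7 of 8 groups, the exception being Khk KO liver, where Hbb-bs led by 1.23-fold. Hbb-bt and Hba-a2 overlapped in every group that had both. Together the haemoglobin transcripts in the tables gave 460.1 ± 241 of every 1000000 reads of the implied total in WT liver, from 155 to 745, and 139 ± 8.89 in Khk KO liver (SD, n = 4). In duodenum the mean shares were 59.4 ± 23.1 and 30.1 ± 13.4 of 1000000 reads in WT and Khk KO. They were 58.3 ± 27.7 and 29.0 ± 8.99 in jejunum, and 27.1 ± 8.70 and 12.9 ± 3.74 in ileum without Hbb-bt. The organs were tabulated and scaled separately, so their order holds only as far as the implied totals are comparable.

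Ratios between haemoglobin transcripts within a library were not used to choose the genes and were tested between genotypes. They come from the values of the same genes, so they are not independent of that choice. Alpha to beta is the summed FPKM of Hba-a1 and Hba-a2 over that of Hbb-bs and Hbb-bt. In liver it was 0.776, 0.649, 0.406 and 0.643 in WT libraries 1 to 4 and 0.887, 0.779, 0.783 and 0.914 in Khk KO libraries 1 to 4. The groups did not overlap, by the small gap between 0.776 in WT library 1 and 0.779 in Khk KO library 2. The group means were 0.618 ± 0.155 in WT and 0.841 ± 0.0699 in Khk KO (SD, n = 4), a difference of 0.48 in log2 with p = 0.0286 in a two-sided exact permutation test, the smallest value 4 against 4 libraries can give. Adjusted over the 11 ratios tested it was 0.210, so the difference did not pass the correction. WT library 3, the liver library with the most haemoglobin reads, had the lowest ratio, and without it the difference was 0.29.

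The intestine showed smaller differences in the alpha to beta ratio. Duodenal libraries had 1.14, 1.06, 1.13 and 0.963 in WT and 1.10, 1.09, 1.04 and 1.27 in Khk KO, with p = 0.457 in the exact permutation test (adjusted 0.668). Jejunal libraries had 0.966, 0.670, 0.633 and 0.645 in WT and 1.01, 0.897, 0.786 and 0.707 in Khk KO, with an exact p of 0.229 (adjusted 0.503). In ileum, where Hbb-bs is the only beta transcript in the table, the ratios were 0.952, 1.25, 0.913 and 0.692 in WT and 0.967, 0.876, 1.14 and 0.801 in Khk KO, with an exact p of 0.971. The genotypes overlapped in these 3 organs. Within the intestine the duodenum was the one organ whose WT mean lay above 1, at 1.07 ± 0.0799, beside 0.729 ± 0.159 in jejunum and 0.952 ± 0.230 in ileum (SD, n = 4), a difference between organs that was not tested.

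The share of each copy within a chain is the less certain measure, for the reason given with the coding sequences. Hba-a1 to Hba-a2 averaged 8.87 ± 2.41 in WT and 15.0 ± 4.12 in Khk KO duodenum, and 8.89 ± 1.08 and 16.3 ± 10.2 in jejunum (SD, n = 4). In each of these 2 organs 3 of the 4 Khk KO libraries lay above every WT library, and the exact permutation p was 0.0571 (adjusted 0.210). The highest of them, 31.4 in Khk KO library 3 of jejunum, rested on 5 reads of Hba-a2 and 191 of Hba-a1. Without that library the jejunal log2 difference between genotypes was 0.34 in place of 0.71. Liver had 10.5 ± 2.504 in WT and 8.69 ± 0.971 in Khk KO, and ileum 8.71 ± 3.34 and 9.29 ± 3.16 (SD, n = 4), with exact permutation p-values of 0.286 and 0.886. Hbb-bs to Hbb-bt averaged 5.79 ± 1.06 in WT and 7.64 ± 1.08 in Khk KO duodenum (SD, n = 4), with an exact p of 0.0857 (adjusted 0.236). In liver it was 11.1 ± 2.55 in WT and 11.9 ± 1.38 in Khk KO, and in jejunum 11.9 ± 3.74 and 11.6 ± 2.04 (SD, n = 4), with exact permutation p-values of 0.486 and 0.971. None of the 11 adjusted p-values was under 0.05, and 1 of the 11 unadjusted exact values was.

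**Figure D3:**
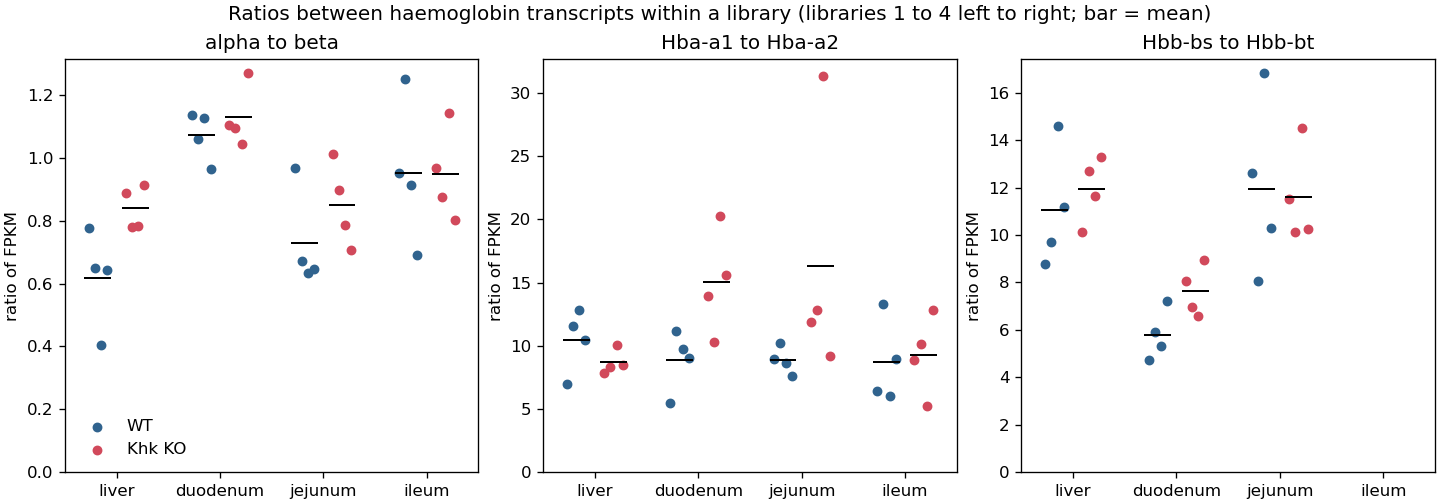
Ratios of FPKM within each library for alpha to beta, Hba-a1 to Hba-a2 and Hbb-bs to Hbb-bt, by organ and genotype, with libraries 1 to 4 from left to right and a bar at the group mean. In liver the Khk KO libraries, from 0.779 upwards, lie above the WT libraries for alpha to beta, and 1 jejunal Khk KO library reaches 31.4 for Hba-a1 to Hba-a2.

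Within an organ the haemoglobin genes varied together from library to library, after each gene was centred on its genotype means. Over the 8 libraries Pearson's r between pairs of the genes was 0.80 to 0.97 in liver, 0.75 to 0.93 in jejunum and 0.88 to 0.98 in duodenum. In ileum it was 0.85 between Hba-a1 and Hbb-bs, 0.49 between Hba-a1 and Hba-a2 and 0.27 between Hba-a2 and Hbb-bs, where Hba-a2 had 8 to 32 reads per library. The genes of a pair share the library, its scaling and, for copies, reads, so these values are a description.

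Libraries of the same number were then compared across organs, because the labels number them 1 to 4 in each. The measure was log2 of the summed normalised counts plus 1, centred on the mean of its organ and genotype, which takes out the contrast used to choose the genes. In the 3 intestinal segments WT libraries 1 and 2 and Khk KO library 1 lay above their group means, and WT libraries 3 and 4 and Khk KO library 3 below. WT library 2, for example, lay at 0.63 in duodenum, 0.77 in jejunum and 0.44 in ileum, and Khk KO library 3 at -0.86, -0.26 and -0.55. Between duodenum and ileum Pearson's r was 0.97 over the 8 numbers (exact p = 0.00868 from permuting numbers within a genotype, adjusted 0.0521 over 6 pairs of organs). Spearman's rho was 1.00 (exact p = 0.00347, adjusted 0.0208), and without the 2 libraries farthest from the median of duodenum, Khk KO 1 and Khk KO 3, r was 0.96. Between duodenum and jejunum r was 0.86 (exact p = 0.0243, adjusted 0.0729) and rho 0.81 (exact p = 0.0347, adjusted 0.0694), and r was 0.95 without those 2 libraries. Between jejunum and ileum r was 0.86 (exact p = 0.0486, adjusted 0.0972) and rho 0.81 (exact p = 0.0347, adjusted 0.0694), with r = 0.74 without WT 2 and Khk KO 1. The rank correlation of duodenum and ileum was thus the one of the 6 pairs of organs past an adjusted 0.05. Within a genotype the intestinal r ran from 0.90 to 0.98 in WT and from 0.82 to 0.99 in Khk KO (n = 4 each, with no test).

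Agreement of same-numbered libraries was not particular to haemoglobin. Over all genes shared by the tables, the median r was 0.67 between duodenum and jejunum, 0.68 between duodenum and ileum and 0.58 between jejunum and ileum. The share of shared genes with an r at least as high as that of the haemoglobin sum was 20.2% of 431, 1.60% of 625 and 17.0% of 1195 genes in the same order. Liver did not follow the intestine. Its r with duodenum was -0.29, with jejunum -0.36 and with ileum -0.48 (exact p = 0.686, 0.786 and 0.363), and rho was -0.19, -0.38 and -0.19 (exact p = 0.708, 0.556 and 0.708). Liver WT library 1, at -1.33, and WT library 3, at 0.88, were farthest from the median, and without them r was 0.33, 0.15 and 0.31. Within WT the liver r ran from -0.70 to -0.46 and within Khk KO from 0.66 to 0.75 (n = 4 each, with no test). The median over all shared genes was also below 0, at -0.40, -0.34 and -0.26. Liver WT library 1, which had the least haemoglobin of its group, carried the number of intestinal libraries that had much of it.

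**Figure D4:**
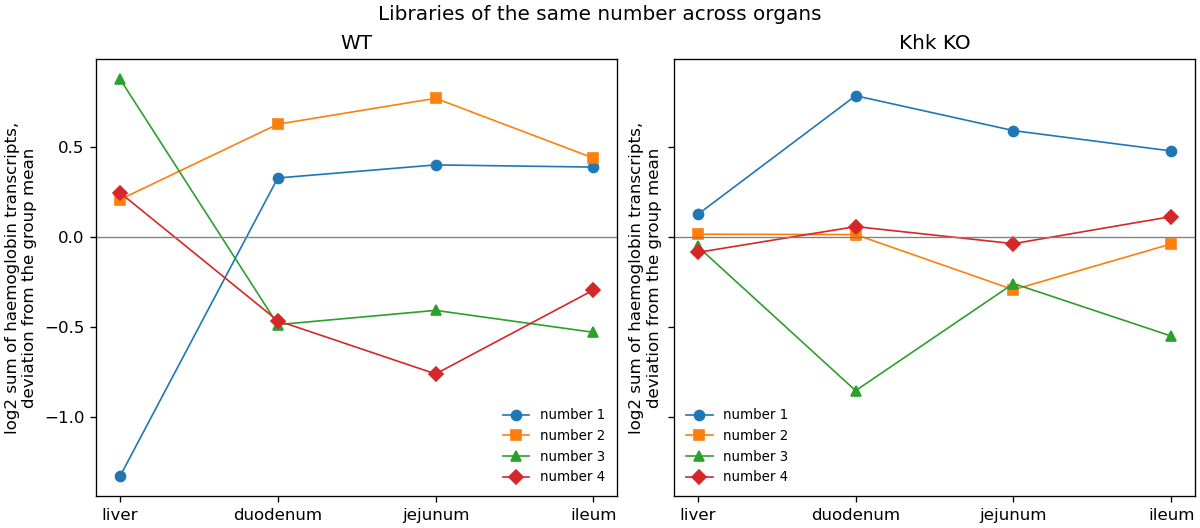
Deviation of the log2 summed haemoglobin transcripts from the mean of its organ and genotype, for libraries numbered 1 to 4 in each organ, WT on the left and Khk KO on the right. WT numbers 1 and 2 and Khk KO number 1 lie above 0 in duodenum, jejunum and ileum, and WT numbers 3 and 4 and Khk KO number 3 below 0, though Khk KO number 3 varies from -0.86 to -0.26 there. WT number 1 goes from -1.33 in liver to 0.33 in duodenum.

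Other genes with the library pattern of the haemoglobin sum were sought in each table by the same centred measure, as a description with no p. In liver the 5 highest r over the 8 libraries were those of Stxbp2, a syntaxin binding protein (0.995), Aprt, which salvages adenine (0.994), Echdc2 (0.993), Trappc2l (0.993) and Hoga1 (0.991). Such values were frequent there, since 6.10% of 5754 genes had an r of at least 0.9. In ileum the highest were Idnk (0.972), Trpt1 (0.946), Casp6, an effector caspase (0.941), Spon2 (0.929) and Tmem203 (0.927), and 0.229% of 4805 genes reached 0.9. In jejunum they were Map1lc3b, an autophagosome protein (0.940), Fadd, an adaptor of death receptors (0.935), Rpl17, a ribosomal protein (0.922), Brms1l (0.914) and Psmc3, a proteasome subunit (0.892). In duodenum no gene reached 0.9, and the highest were Klhdc8a (0.846), the immunoglobulin kappa segments Igkv1-117 (0.824) and Igkv9-123 (0.812), Mcat (0.791) and Gas6 (0.786). None of these 20 genes is an erythroid marker in the list used here.

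Other globins and the regulators of globin genes had no row in any of the 4 tables, 0 of 12 and 0 of 12. The former include the embryonic genes Hba-x and Hbb-y, and the latter Klf1, Gata1 and Ahsp, so their levels are not known from these files. The erythroid marker list, which leaves out the haemoglobin genes, had 11 of 25 genes in some table. Slc4a1, the anion exchanger of the red-cell membrane, was among the 14 without a row. Shares of all genes, here and for the lists below, are over the genes the authors adjusted over, most of which have no row. The 6375 genes in the liver table hold 2081 called lower and 2283 called higher. The 5187 genes in the ileum table hold 1100 called lower and 1405 called higher. In liver 7 of the 25 erythroid markers were in the table. The authors' deposited table called 3 of them higher, beside 12.5% of all genes, namely Slc25a37, a mitochondrial iron importer, Tfrc, the transferrin receptor, and Sptb, a spectrin. It called 2 lower, beside 11.4% of all genes, namely Alas2, the erythroid enzyme of the opening step of haem synthesis, and Car2, a carbonic anhydrase. With the length trend taken out, the edgeR log2 fold changes fell in size from 1.05 to 0.66 for Slc25a37, from 0.86 to 0.41 for Tfrc, from 1.36 to 0.48 for Sptb and from -0.87 to -0.39 for Car2. The summed normalised counts of the 7 were 3355 to 3948 in WT and 3404 to 3898 in Khk KO, so the ranges overlapped. This sum adds markers that moved in opposite directions. Alas2 ran from 2335 to 2738 in WT and 1426 to 1927 in Khk KO, and Slc25a37 from 523 to 802 and 1253 to 1659. The overlap therefore does not show equal erythroid content, which was not tested. The haemoglobin sum ran from 1845 to 8553 in WT and 1541 to 1784 in Khk KO.

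Alas2 did not share the library pattern of haemoglobin in liver. It held 2738, 2684, 2406 and 2335 normalised counts in WT libraries 1 to 4 and 1731, 1656, 1927 and 1426 in Khk KO libraries 1 to 4. WT library 1 was thus the highest for Alas2 and the lowest for haemoglobin, and the centred r of Alas2 with the haemoglobin sum was -0.35 over 8 libraries, a description only. Haemoglobin per Alas2 normalised count ran from 0.674 to 3.55 in WT and from 0.818 to 1.08 in Khk KO. The edgeR log2 fold change of Alas2 was -0.57 ± 0.13 (SE) and became -0.09 with the length trend taken out.

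In the intestine the erythroid markers were few. The duodenum table held 1 of 25, and 4 of 25 were in the jejunum table, none of them called by the authors' deposited table, where 0.128% and 0.536% of all genes were called higher. The ileum table held 5 of 25, of which the authors' deposited table called Sptb higher, beside 8.76% of all genes, and Bpgm lower, beside 6.86%, the red-cell enzyme that makes 2,3-bisphosphoglycerate. Bpgm had 1358 ± 178 normalised counts in WT and 988 ± 96.6 in Khk KO, and Sptb had 82.9 ± 10.1 and 161 ± 36.9 (SD, n = 4). Their edgeR log2 fold changes went from -0.45 to -0.23 and from 0.97 to 0.36 with the length trend taken out. Slc25a37 was the 1 marker in duodenum, where its Khk KO range (839 to 1070 normalised counts) lay above its WT range (599.9 to 793). The summed markers of jejunum ran from 5108 to 5883 in Khk KO and from 4026 to 4638 in WT. The jejunal sums are dominated by Slc25a37 and Tfrc, which intestinal cells also express. The share of all genes with every Khk KO library above every WT library was not determined. In ileum the sums of the 5 markers were 1641, 1578, 1464 and 1257 normalised counts in WT libraries 1 to 4 and 1342, 1203, 6770.3 and 2068 in Khk KO libraries 1 to 4, so Khk KO library 2 was below every WT library. Without Car1, left out after its values were seen because it was high in Khk KO libraries 3 and 4, the ileal sums were 1257 to 1641 in WT and 1088 to 1336 in Khk KO. Their part in the haemoglobin values was not tested.

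Of 14 listed genes of haem synthesis, 8 were in the liver table, and the authors' deposited table called 5 lower, beside 11.4% of all genes, and 1 higher, Slc25a37, beside 12.5%. Those called lower included Alas2, Tmem14c, Urod and Alad. The other 6 have no row and no known level. The median log2 fold change of the 8 was -0.54 in the authors' deposited table, beside 0.42 for all genes in the liver table. With the length trend taken out, the edgeR log2 fold change of Urod, a decarboxylase of the pathway, went from -0.57 to -0.10, that of Tmem14c from -0.71 to 0.0032 and that of Alad from -0.39 to 0.19, so that the signs of Tmem14c and Alad turned. In ileum 6 of 14 were in the table, with Urod, Alad and Tmem14c called lower, beside 6.86% of all genes, and none higher, beside 8.76%, by the authors' deposited table. Their edgeR log2 fold changes of -0.56, -0.49 and -0.54 became -0.16, -0.018 and 0.05 with the length trend taken out. The median of these 6 was -0.42, beside 0.30 for all genes in the ileum table. Duodenum had 2 and jejunum 3 of 14 in their tables, none of them called.

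Of 15 listed genes that clear haemoglobin and haem, 9 were in the liver table and 6 have no row. The authors' deposited table called 7 lower, beside 11.4% of all genes, namely Hpx, Ftl1, Hp, Blvrb, Fth1, Blvra and Slc46a1, and 1 higher, Lrp1, beside 12.5%. Hpx encodes haemopexin, the plasma protein that binds free haem, Hp encodes haptoglobin, which binds free haemoglobin, and Lrp1 encodes the receptor of the haem and haemopexin complex. Hpx had 50806, 93255, 157475 and 94110.0 normalised counts in WT libraries 1 to 4 and 39799, 40244, 40837 and 44526 in Khk KO libraries 1 to 4, with WT library 1 the lowest and WT library 3 the highest, as for Hbb-bs. Its edgeR log2 fold change was -1.22 ± 0.25 (SE), and -0.54 without the length trend. Hp had 71380 ± 21960 normalised counts in WT and 40462 ± 4669 in Khk KO (SD, n = 4), with -0.79 ± 0.19 (SE) and -0.14 without the trend. The ferritin genes Ftl1 and Fth1 turned from -0.62 to 0.03 and from -0.39 to 0.31 by that correction. Blvrb went from -0.70 to -0.25, Blvra from -0.81 to -0.29, Slc46a1 from -0.39 to -0.03 and Lrp1 from 1.26 to 0.35. In ileum 7 of 15 were in the table. The authors' deposited table called Ftl1, Blvrb, Fth1 and Blvra lower there and Slc40a1, the iron exporter ferroportin, higher, with 783 ± 136 normalised counts in WT and 1272 ± 353 in Khk KO (SD, n = 4). Of all genes adjusted over in ileum, 6.86% were called lower and 8.76% higher. With the length trend taken out, Ftl1 went from -0.69 to -0.14, Blvrb from -0.77 to -0.40, Blvra from -0.41 to -0.0024 and Slc40a1 from 0.71 to 0.18, and Fth1 turned from -0.51 to 0.08. Duodenum had 3 of 15 and jejunum 4 of 15 in their tables, none called. Hmox1, the inducible haem oxygenase, had 364, 139, 151 and 179 normalised counts in WT and 63.4, 129, 97.9 and 70.7 in Khk KO duodenum.

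Markers of other cells were read beside these values. Platelet markers had 1 of 14 genes in a table, Rgs18 in duodenum, and neutrophil markers 2 of 12, Cxcr2 in liver and Mmp9 in duodenum, none called. Of the macrophage markers 4 of 10 were in the liver table, and the authors' deposited table called Clec4f and Cd5l lower, beside 11.4% of all genes, and Mrc1 higher, beside 12.5%. Clec4f, a lectin of Kupffer cells, the liver macrophages, had 1350, 2671, 4458 and 2818 normalised counts in WT libraries 1 to 4 and 1511, 1144, 1069.8 and 1132 in Khk KO libraries 1 to 4. Clec4f went from -1.18 to -0.65, Cd5l from -0.79 to -0.19 and Mrc1 from 0.49 to 0.04 (edgeR log2 fold change) with the length trend taken out. The summed macrophage markers were 3345 to 8105 in WT and 3107 to 4363 in Khk KO. Endothelial markers in the liver table were 5 of 10, and all 5 were called higher, beside 2283 of the 6375 genes in that table. Their sums were 1098 to 2889 in WT and 3767 to 4015 in Khk KO. Their transcripts are long, 4712 to 16064 bases, and taking the length trend out moved Vwf from 1.05 to 0.05, Kdr from 0.70 to 0.03, Stab1 from 1.04 to 0.29, Stab2 from 1.02 to 0.35 and Tek from 0.59 to 0.51. Lymphocyte markers called lower were 1 of 2 in the liver table, beside 2081 of its 6375 genes. In the ileum table they were 2 of 5, beside 1100 of its 5187 genes. The part of these cells in the haemoglobin values was not tested.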

How the data were processed

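Per the labels' protocols, RNA was isolated with a Qiagen kit, captured on poly-T beads and primed with random hexamers. HISAT2 2.0.5 and the build GRCm38 (mm10) are named by the submitters' processing notes, and the counting tool is not given in the sources used here. For each organ the authors deposited 1 table of read counts, of a normalised signal (the count divided by 1 size factor per library, called normalised count here), of FPKM, and of a log2 fold change, p-value and adjusted p-value of Khk KO against WT. The tables hold genes with an unadjusted p under 0.05 only, and an adjusted p of exactly 1 was read as not adjusted.

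Read counts were refitted per organ with edgeR 4.0.16 in R 4.3.3, with TMM scaling of the library totals implied by FPKM, filterByExpr and the quasi-likelihood F test, adjusted by Benjamini and Hochberg for as many genes as entered the authors' own adjustment. The SE is that of the refit. DESeq2 1.42.0 served as an alternative. The length trend was a lowess curve (span 0.5) per library over genes of the organ's table averaging 10 normalised counts or more. It was taken out as an offset with the authors' size factors, so values set beside the TMM refit also differ in scaling. Ratios of FPKM were compared with exact permutation tests over the 70 splits of 8 libraries, and same-numbered libraries with 576 exact permutations within genotypes. The edgeR step was tested on simulated data. Python 3.11.15, numpy 2.4.6, pandas 2.3.3, scipy 1.17.1, statsmodels 0.14.6 and matplotlib 3.10.9 were used.

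Sequences came from GENCODE M21 transcripts and from the RefSeq promoter table of GRCm38.p6, where 4 of the 4 genes matched by symbol. The haemoglobin genes and the lists were chosen with earlier results of these data known. Named genes are the 4 members, the list genes with a deposited adjusted p under 0.05, the 5 genes per organ with the most similar library pattern, and Khk. A few list genes outside that rule, such as Hmox1, were named after their values were seen. Some list genes are not reported here by name. The lists cover other globins, globin gene regulators, haem synthesis, clearance of haemoglobin and haem, and markers of erythroid cells, platelets, neutrophils, lymphocytes, macrophages, endothelium, hepatocytes and enterocytes. Nothing in the labels says that replicates of a group were separate animals beyond their numbers, so p-values measure the spread between these libraries.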

Additional observations from a re-analysis of the deposited data

Results flagged for a closer look

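Of 52 groups of 4 libraries examined, 2 had a library far from the other 3 by Dixon's test. Chance flags about 1 group in 20. Hba-a1 in Khk KO jejunum had 346 normalised counts in library 1 and 176 to 181 in the other 3, with 0.968 of the range of the group lying between library 1 and its nearest neighbour. The alpha to beta ratio of WT jejunum was 0.966 in library 1 and 0.633 to 0.670 in the other 3, with 0.866 of the log2 range in that gap.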

How the results depend on the processing

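The 105 alternative fits of the haemoglobin genes that kept all 8 libraries gave log2 fold changes from -1.95 to -0.24, and the 120 fits without 1 library gave -2.26 to -0.43, so none changed sign. Calls over all genes were less stable. In liver, duodenum, jejunum and ileum the edgeR refit called 2675, 1, 1 and 2221 genes. DESeq2 called 4411, 37, 347 and 3520, and the fit with the length trend taken out called 786 in liver, 2 in duodenum and 476 in ileum. With a library left out in turn, the counts ran from 9 to 4860 in liver, where omitting any library but WT 3 moved the count by over 1.5 times, from 1 to 2 in duodenum and 1 to 3 in jejunum. They ran from 656 to 2912 in ileum, where WT 2 and each Khk KO library moved it so. The cause was not tested.

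Numbers did not pair WT with Khk KO libraries within an organ (correlations of -0.27 to 0.31 between same-numbered libraries). With the replicate block the counts were 2156 in liver, 1 in duodenum, 0 in jejunum (1715 genes at an unadjusted p under 0.05) and 1202 in ileum. With the block and the length trend taken out they were 636, 1, 5 and 281. The block changed no call on a ratio.

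Ratios close to 0 in log2 changed sign without single libraries. The ranges were -0.13 to 0.15 for alpha to beta in ileum, -0.086 to 0.35 for Hba-a1 to Hba-a2 in ileum and -0.18 to 0.18 for Hbb-bs to Hbb-bt in jejunum. The liver difference in alpha to beta ran from 0.29 to 0.60. With the length trend taken out, the correlation across organs turned to 0.14 for liver with duodenum and 0.16 for liver with ileum, and those of duodenum with jejunum (0.81) and with ileum (0.98) passed an adjusted 0.05. Depth limits Hba-a2 in the intestine, with 5 to 99 reads per library. The Hba-a1 to Hbb-bs ratio and the sum without Hbb-bt were added after seeing the data and changed no call.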

Other observations

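Some listed genes were set by few libraries, and their values are given with no test. Car1, a carbonic anhydrase that red cells and some gut epithelium express, held 0, 35.9, 9.33 and 0 normalised counts in WT libraries 1 to 4 of ileum and 5.37, 0, 5682 and 970.3 in Khk KO libraries 1 to 4. Khk KO library 3, with the most Car1, had the least haemoglobin of its group. In jejunum, transcripts of the plasma proteins haptoglobin and haemopexin were highest in WT library 1, with 153 normalised counts of Hp against 12.3 to 35.2 in the other WT libraries and 52.5 of Hpx against 0 to 6.68. Ank1, a red-cell membrane gene, was also highest there, with 138 normalised counts against 25.6 to 44.7. WT library 1 had the highest alpha to beta ratio of WT jejunum, while WT library 2 had the most Hba-a1 and Hbb-bs.

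Listed hepatocyte markers called by the authors' deposited table in liver were 1 higher and 6 lower of 8 in the table. Of its 6375 genes, 2283 were called higher and 2081 lower. With the length trend taken out, the log2 fold changes turned from -0.47 to 0.18 for Ttr, from -0.36 to 0.22 for Serpina1a and from -0.24 to 0.36 for Apoh, and went from -0.75 to -0.05 for Apoa1, from -0.58 to -0.012 for Fgg and from -0.37 to -0.21 for Fgb and from 0.73 to 1.21 for Tat. Enterocyte markers called lower in ileum were 2 of 6 in the table, beside 1100 of its 5187 genes. With the length trend taken out they went from -0.86 to -0.26 for Fabp2 and from -0.47 to -0.02 for Cdx2.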
